A study of Mus musculus with 48 samples.

Results

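Border-associated macrophages are the resident macrophages of the meninges, the perivascular spaces and the choroid plexus. They share a myeloid origin and a dependence on the receptor Csf1r with microglia, the macrophages of the parenchyma, but carry a different set of surface receptors. They are known for scavenging: they take up glycoproteins, hyaluronan, haemoglobin complexes and debris from the fluid spaces around vessels. The 8 genes described here are common markers of these cells: Mrc1, Lyve1, Cd163, Stab1, Pf4, F13a1, Ms4a7 and Cbr2. They were picked by symbol, with earlier results of these data known. They are 8 of the 24421 gene rows shared by the 6 deposited tables.

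The tables hold bulk RNA-seq of cells sorted from mouse brain in a study of the astrocyte transporter gene Slc22a3, as 48 libraries in 16 groups of 3. Cortex, hippocampus and olfactory bulb of Aldh1l1-GFP mice, in which an astrocyte promoter drives GFP, were each sorted into GFP cells, titled astrocytes, and mCherry (mCh) cells, titled neurons, after Gq-Saline or Gq-CNO (18 libraries of each sort). Gq is the usual name of a designed receptor that clozapine-N-oxide (CNO) activates, and both arms carry the Gq label. GFP cells of the Aldh1l1-GFP olfactory bulb were also collected from a CNO-control group and an untreated group, which carry no Gq label. The last 6 libraries are mCh cells of the olfactory bulb of Slc22a3-FF mice, which are floxed in both groups: 3 controls labelled Gfap-mCh and 3 libraries labelled Slc22a3-cKO and Gfap-Cre, names in which Gfap, a promoter active in astrocytes, drives mCherry or Cre. The labels give neither ages nor the cells that carry the receptor, and nothing in them ties a library to an animal or culture of its own. The p-values therefore reflect variation among these libraries only, which may be technical.

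Library depth ran from 325129 to 24664376 recovered reads in the 24 GFP libraries, from 228048 to 10295394 in the 18 mCh libraries titled neurons, and from 7496085 to 13378722 in the Slc22a3-FF libraries. The mCh sorts held more than their titles say. In reads per 1000000 recovered reads (RPM), 12 astrocyte genes summed to between 52676 and 134848 in the GFP libraries. In the mCh libraries titled neurons, 9 neuron genes summed to 1524 to 4471 RPM, 12 homeostatic microglia genes to 2801 to 9385 RPM and 8 oligodendrocyte genes to 18365 to 60743 RPM, and the microglia sum was above the neuron sum in 17 of 18. In the Slc22a3-FF libraries, titled astrocytes, the astrocyte genes summed to 2105 to 14264 RPM and the microglia genes to 4117 to 10008 RPM. Slc22a3 itself had 0 reads in the 3 floxed controls and 0, 0 and 12 reads in the libraries labelled Slc22a3-cKO, so it does not check that label. In bulk samples, fewer cells of a type and less RNA per cell cannot be told apart.

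The members are scavenger receptors, secreted proteins, a membrane protein and an enzyme. Mrc1 (ENSMUSG00000026712.3), the mannose receptor, lies on mm10 chr2:14229392-14332057 on the plus strand and hosts the microRNA gene Mir511. Lyve1, a hyaluronan receptor that lymphatic endothelium also carries, lies on chr7:110850607-110863239, minus strand. Cd163, the receptor for haemoglobin bound to haptoglobin, lies on chr6:124304656-124330527, plus strand. Stab1, the scavenger receptor stabilin-1, lies on chr14:31139013-31168641, minus strand, and overlaps Nt5dc2 on the other strand. Pf4, a secreted chemokine that is also a platelet product, lies on chr5:90772435-90773383, plus strand. F13a1, the catalytic chain of coagulation factor XIII, lies on chr13:36867178-37050244, minus strand, with 2 antisense genes inside it. Ms4a7, a membrane-spanning protein of the MS4A family, lies on chr19:11321039-11336146, minus strand, and Cbr2, a carbonyl reductase, on chr11:120729489-120732114, minus strand. Whether the counting used strand is not given in the sources used here, so reads of Stab1 and F13a1 cannot be separated from those of their opposite-strand neighbours.

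RefSeq promoter windows (GRCm38.p6, 250 bases before to 50 after the start) were at hand for 7 members, Lyve1 having none. PU.1, encoded by Spi1, is the master transcription factor of macrophages, and its core GAGGAA was searched on both strands (reverse complement TTCCTC). F13a1 and Ms4a7 have 2 start sites each, which makes 9 windows. The core was present in 7 of these 9 windows, missing from that of Cd163 and from 1 of Ms4a7, and in 28.3% of all 32851 promoter windows. The letters TGCTGA or TCAGCA, part of the sites that MAF factors bind, was present in 2 of 9 (Cbr2 and Stab1) against 19.5% of all windows, and the letters TATAAA or TTTATA in 0 of 9 against 13.6%. Windows of the same gene are not independent. These are matches of letters and not measured sites. The 250 bases before the start are shown for the members that differed between the CNO-control and untreated groups and have a window, written 5′ to 3′ along the gene with the PU.1 core in capitals: Mrc1 at chr2:14229164-14229413 (plus strand), F13a1 at its first start site at chr13:37050245-37050494 (minus strand) and Stab1 at chr14:31168642-31168891 (minus strand).
Mrc1: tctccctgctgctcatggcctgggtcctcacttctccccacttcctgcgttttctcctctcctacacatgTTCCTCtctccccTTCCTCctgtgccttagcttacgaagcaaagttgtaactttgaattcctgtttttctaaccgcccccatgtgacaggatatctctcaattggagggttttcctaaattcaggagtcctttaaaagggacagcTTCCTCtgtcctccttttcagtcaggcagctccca
F13a1: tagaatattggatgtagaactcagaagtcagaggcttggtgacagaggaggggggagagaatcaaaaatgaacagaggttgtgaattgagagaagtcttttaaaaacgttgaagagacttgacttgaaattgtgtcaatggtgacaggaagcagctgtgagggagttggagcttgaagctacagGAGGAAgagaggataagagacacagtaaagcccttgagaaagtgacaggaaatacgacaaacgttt
Stab1: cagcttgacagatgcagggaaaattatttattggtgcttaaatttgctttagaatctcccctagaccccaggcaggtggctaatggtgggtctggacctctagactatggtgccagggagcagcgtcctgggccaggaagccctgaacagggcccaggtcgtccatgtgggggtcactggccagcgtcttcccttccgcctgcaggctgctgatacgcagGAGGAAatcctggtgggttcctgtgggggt
The stretch before Mrc1 holds 3 PU.1 cores and those before F13a1 and Stab1 hold 1 each. The 250 bases before the other start site of F13a1, not shown, hold 0, as its only match lies at base 15 after the start.

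Across the series the summed level of the 8 genes was low in GFP sorts and high in mCh sorts, with the untreated olfactory bulb GFP sort between. Not every member had this order. Cbr2 had 0 reads in the untreated libraries, and Ms4a7 had 0 in the cortex mCh libraries. Lyve1 was at 6.96 to 20.7 RPM in the untreated libraries, within its range of 0 to 59.0 RPM in the mCh libraries titled neurons. Their summed level was 0.573 to 68.9 RPM (median 7.70) in the 21 GFP libraries other than the untreated ones. It was 159, 92.2 and 139 RPM in the 3 untreated libraries, 215 to 893 RPM (median 361) in the 18 mCh libraries titled neurons and 535 to 1599 RPM in the 6 Slc22a3-FF libraries. The first 3 of these sets do not overlap, and the Slc22a3-FF libraries overlap the upper end of the other mCh libraries. The tables were normalised separately, so levels between tables are described in RPM of recovered reads and were not tested.

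Mrc1 followed this order, but it is itself part of the sum, so this is not a separate observation. Group means of Mrc1 were 1.21 ± 1.09 RPM in hippocampus GFP Gq-Saline, 2.18 ± 2.26 in olfactory bulb GFP Gq-CNO, 2.65 ± 2.29 in cortex GFP Gq-CNO, 3.52 ± 2.59 in cortex GFP Gq-Saline, 5.52 ± 4.78 in olfactory bulb GFP Gq-Saline, 5.74 ± 6.69 in hippocampus GFP Gq-CNO and 6.97 ± 6.55 in the CNO control (SD, n = 3 each). Neighbours among these 7 groups differ by less than their SD. The untreated olfactory bulb GFP group stood apart at 79.0 ± 24.3 RPM. In the mCh sorts the means were 112 ± 52.9 RPM in hippocampus Gq-CNO, 137 ± 32.9 in cortex Gq-CNO, 140 ± 108 in hippocampus Gq-Saline, 219 ± 134 in cortex Gq-Saline, 271 ± 120 in olfactory bulb Gq-Saline and 298 ± 117 in olfactory bulb Gq-CNO. These neighbours also differ by less than their SD. The libraries labelled Slc22a3-cKO (433 ± 82 RPM) and the floxed controls (726 ± 275 RPM) had the highest levels.

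**Figure D1:**
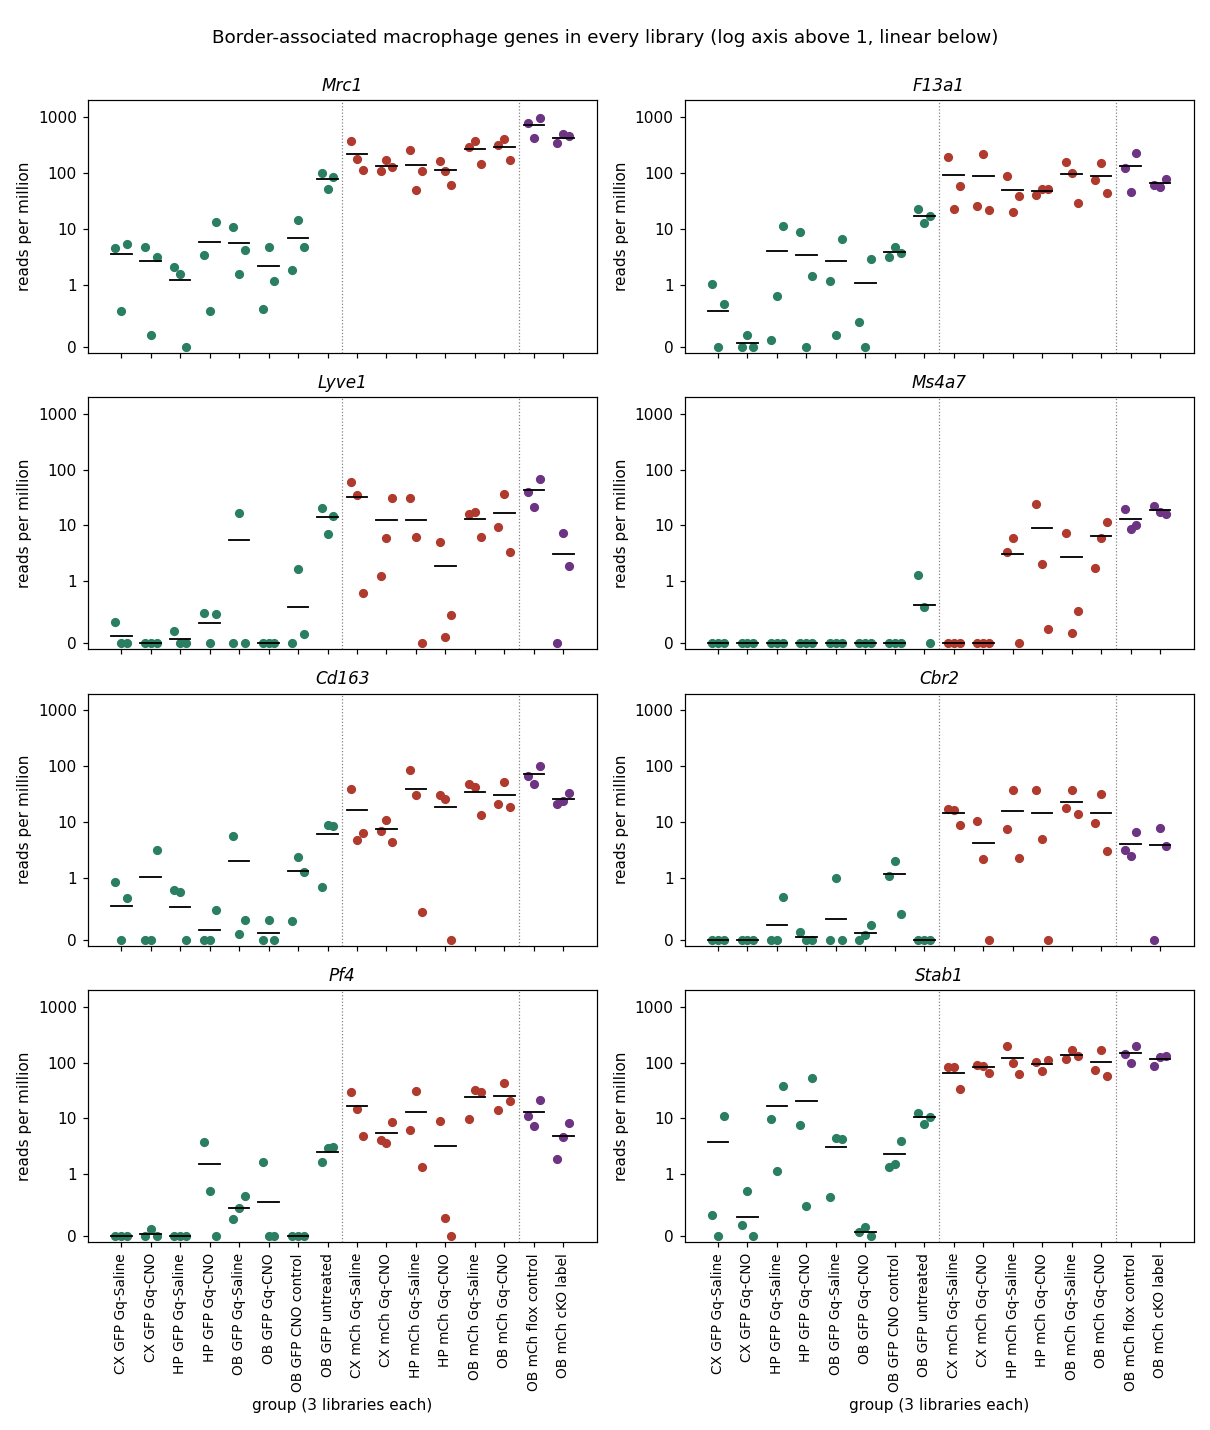
RPM of each of the 8 members in every library (points) of the 16 groups, on an axis that is logarithmic above 1 and linear below, with a bar at each group mean; green marks GFP sorts, red mCh sorts titled neurons and purple the Slc22a3-FF mCh sorts. Mrc1 sits between 0 and 14.3 RPM in the 21 GFP libraries other than the untreated ones and between 49.6 and 402 RPM in the mCh libraries titled neurons.

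Detection differed between the sorts as well. Of the 18 mCh libraries titled neurons, Mrc1, Stab1 and F13a1 had reads in 18, Lyve1, Cd163 and Pf4 in 17, Cbr2 in 16 and Ms4a7 in 11. In the 21 GFP libraries other than the untreated ones, Mrc1 had reads in 20, Stab1 in 18, F13a1 in 16, Cd163 in 13, Cbr2 in 8, Lyve1 and Pf4 in 7 and Ms4a7 in 0. Stab1 reached higher levels in the hippocampus GFP sort, whose 6 Gq libraries held 0.488 to 53.2 RPM (median 8.70), against 0 to 4.44 RPM in the 6 olfactory bulb Gq libraries.

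Levels of different genes can be compared per length. In reads per kilobase of exon per 1000000 reads (RPKM), the median over the 18 mCh libraries titled neurons was 26.5 for Mrc1, 13.1 for Pf4, 8.79 for Stab1, 7.67 for F13a1, 7.37 for Cbr2, 3.66 for Cd163, 2.13 for Lyve1 and 0.084 for Ms4a7. The myeloid growth factor receptor gene Csf1r and the microglial purine receptor gene P2ry12 were at 428 and 477 RPKM in the same libraries. The order differed in the Slc22a3-FF libraries, where Mrc1 had a median of 75.3 RPKM, Stab1 12.4, Pf4 10.7, F13a1 10.3, Cd163 7.43, Lyve1 4.82, Ms4a7 3.78 and Cbr2 2.57. Ms4a7, last by far in the first set, stood above Cbr2 in the second. In the untreated olfactory bulb GFP libraries Lyve1 (5.08 RPKM) came second after Mrc1 (13.4 RPKM) and Cbr2 was at 0 in all 3.

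As a sum, the members were higher in mCh sorts together with microglia genes. The ratio of the medians of summed member RPM, mCh libraries titled neurons over all GFP libraries, was 26.5. Counted per read of the 12 microglia genes, the same ratio was 0.768, and per read of 12 genes shared by all macrophages and microglia it was 0.467. Both ratios are below 1.

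In the olfactory bulb GFP sort, Mrc1, Lyve1, F13a1 and Stab1 were lower in the CNO-control libraries than in the untreated ones. These values are normalised reads, the recovered reads divided by 1 size factor per library. Mrc1 was at 6.96, 51.8 and 17.2 in the 3 CNO-control libraries and at 466, 222 and 369 in the 3 untreated ones. Lyve1 was at 0, 5.89 and 0.51 in the CNO control and at 96.8, 29.6 and 64.1 in the untreated group. In both genes every CNO-control library lay below every untreated one. F13a1 was at 12.2, 17.3 and 13.1 in the CNO control and at 105, 54.3 and 72.8 untreated. Stab1 was at 5.22, 5.47 and 14.1 in the CNO control and at 59.3, 34.6 and 46.6 in the untreated group. These groups did not overlap either, as was the case for 32.9% of all 10940 genes tested in this comparison.

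In limma's moderated test with Benjamini-Hochberg adjustment over all tested genes, Mrc1 fell by 4.10 on the log2(value + 1) scale (SE 0.60, 95% interval -5.40 to -2.80, adjusted p = 0.00113), which is 17.2-fold on that scale. Its group means were 25.3 ± 23.5 and 352 ± 123 normalised reads (SD, n = 3). Lyve1 fell by 4.73 (SE 1.00, adjusted p = 0.0101), F13a1 by 2.33 (SE 0.56, adjusted p = 0.0187) and Stab1 by 2.46 (SE 0.72, adjusted p = 0.0434). The test called 12.2% of all tested genes, 6.88% as lower in the CNO control, and the median over all tested genes was 0.11. A gene was tested only with at least 10 normalised reads in at least 3 libraries. F13a1 reached that value in all 3 CNO-control libraries, Mrc1 in 2, Stab1 in 1 and Lyve1 in 0, so Lyve1, Mrc1 and Stab1 were tested by virtue of the group in which they are high. The F13a1 call was lost without any 1 CNO-control library (adjusted p = 0.0554, 0.0560 and 0.0713), and the Stab1 call in 5 of 6 such fits (adjusted p = 0.0693 to 0.162) and in 3 of the 7 alternatives that kept all libraries: no low-value filter (0.0844), a pseudocount of 0.1 (0.0544) and the replicate block (0.0662). The Mrc1 call held in all 13 alternatives run, and the Lyve1 call in the 10 that tested it, since it fell below the filter without any 1 untreated library.

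**Figure D2:**
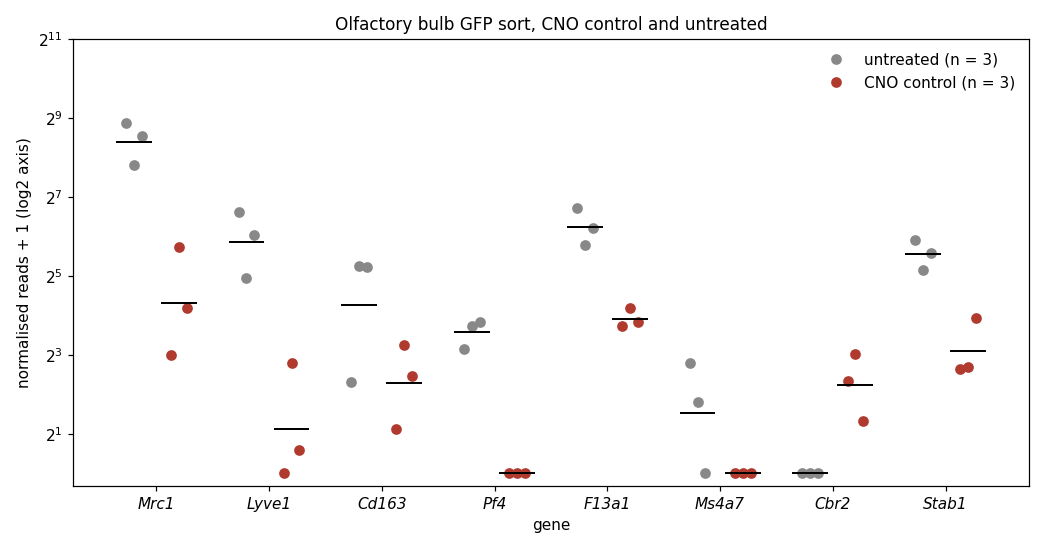
Normalised reads + 1 (log2 axis) of the 8 members in the 3 CNO-control and the 3 untreated libraries of the olfactory bulb GFP sort, with a bar at the mean of the log2 values. For Mrc1, Lyve1, F13a1 and Stab1 every untreated library lies above every CNO-control library, and Cbr2 has reads in the CNO control (7, 17 and 3) and none in the untreated libraries.

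The other 4 members were too low to be tested. Pf4 had 0, 0 and 0 reads in the CNO control and 4, 5 and 9 in the untreated group, which makes it at least 19.0-fold higher in the untreated group against a floor of 3 reads over the group. Ms4a7 had 0 reads against 4, at least 4.22-fold higher untreated, from 2 of the 3 libraries. Cbr2 went the other way, with 7, 17 and 3 reads in the CNO control and 0, 0 and 0 untreated, at least 2.84-fold higher in the CNO control. Cd163 overlapped between the groups, with 2, 20 and 9 reads in the CNO control and 2, 15 and 25 untreated.

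Microglia and general macrophage genes moved with the members here. Of the homeostatic microglia genes 8 of 11 tested were lower in the CNO control (median -2.28), among them P2ry12 (-1.74, adjusted p = 0.00166 by limma with Benjamini-Hochberg adjustment), the Fc receptor-like gene Fcrls (-3.35, 0.00235) and the fractalkine receptor gene Cx3cr1 (-3.12, 0.00481). Of the genes shared by all macrophages 9 of 11 tested were lower (median -2.77), among them Csf1r (-2.77, adjusted p = 0.000385), the integrin gene Itgam (-3.36, 0.000392) and the complement gene C1qb (-3.96, 0.000963). The members' reads per 100 microglia reads were 5.02, 11.9 and 8.42 in the CNO control and 33.8, 20.3 and 24.8 untreated, without overlap. Of 27 further genes used as border macrophage markers 11 were tested and 1 was lower, Tgfbi, a matrix protein gene (-3.28, adjusted p = 0.0465 by limma). The iron exporter gene Slc40a1 (-1.78, 0.0663) and Gas6 (-0.93, 0.0782) did not pass, and the list's median was -0.72.

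Markers of other cells that share member genes were also compared. The lymphatic endothelium list, of interest for Lyve1, summed to 80.0 to 117 RPM in the CNO control and 69.1 to 78.9 RPM untreated. It includes Reln, which neurons also express. The platelet list, of interest for Pf4, summed to 0.979 to 1.81 and 0.422 to 5.73 RPM. Of the endothelial genes 2 of 8 were lower in the CNO control, the angiopoietin receptor gene Tek (-4.02, adjusted p = 0.0173 by limma) and Slco1a4 (-2.44, 0.0204). Csf1, which encodes a ligand of Csf1r, was higher in the CNO control (1.75, adjusted p = 0.00871 by limma), 1 of the 4 growth factor and receptor genes tested to pass. The nuclear RNA Malat1 made up 2.37 to 4.10% of reads in the CNO control and 0.25 to 0.43% untreated, and depth was 6619479 to 8577907 against 1724893 to 2964862 reads. The part of depth, Malat1 share and microglia genes in the member differences was not tested.

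In the mCh sorts titled neurons, Mrc1 was higher in the olfactory bulb than in the hippocampus, whereas microglia genes were lower there than in either other region. Mrc1 had a lowest, median and highest level of 142, 306 and 402 RPM in the 6 olfactory bulb libraries, 109, 150 and 370 RPM in the 6 cortex libraries and 49.6, 109 and 260 RPM in the 6 hippocampus libraries. The ranges overlap, and the olfactory bulb median lies above the highest hippocampus library. P2ry12 ran the other way, at 460, 701 and 889 RPM in the olfactory bulb, 1079, 1593 and 2412 in the cortex and 1081, 1278 and 1826 in the hippocampus. Every olfactory bulb library lay below every other library for P2ry12, and the share of all genes that separate in this way is not given here. P2ry12 overlaps Med12l on the other strand, so their reads cannot be separated if the counting ignored strand.

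Mrc1 rose by 1.29 on the log2(value + 1) scale in the olfactory bulb against the hippocampus (SE 0.34, adjusted p = 0.0192 by limma with Benjamini-Hochberg adjustment), between means of 689 ± 251 and 304 ± 179 normalised reads (SD, n = 6). It was the only member called of 8 tested, where 3.91% of 12358 genes were called, 2.29% as higher in the olfactory bulb, and the median over all genes was 0.14. Without the low-value filter its adjusted p was 0.0993. The call was also lost without hippocampus Gq-CNO replicate 3 (0.0827), hippocampus Gq-Saline replicate 2 (0.107), olfactory bulb Gq-CNO replicate 1 (0.0559) or 2 (0.0749), or olfactory bulb Gq-Saline replicate 2 (0.0862). Pf4, at 9.69, 25.2 and 42.9 RPM (lowest, median, highest) in the olfactory bulb and 0, 3.78 and 31.2 RPM in the hippocampus, differed by 2.83 (SE 0.88, adjusted p = 0.0647 by limma). It passed without hippocampus Gq-CNO replicate 1 (0.0188), hippocampus Gq-Saline replicate 2 (0.0363) or cortex Gq-CNO replicate 3 (0.0456).

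The other 6 members did not pass in that comparison. Their log2 differences were 2.29 for Lyve1 (adjusted p = 0.339 by limma), 1.62 for Cd163 (0.497), 1.22 for Cbr2 (0.688), 0.82 for F13a1 (0.559), 0.17 for Ms4a7 (0.972) and 0.15 for Stab1 (0.935). Stab1 was thus nearly level, at 58.3, 124 and 170 RPM (lowest, median, highest) in the olfactory bulb and 62.9, 99.8 and 201 RPM in the hippocampus, with a 95% interval of the log2 difference from -0.53 to 0.83. The median over the 8 members was 1.26.

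**Figure D3:**
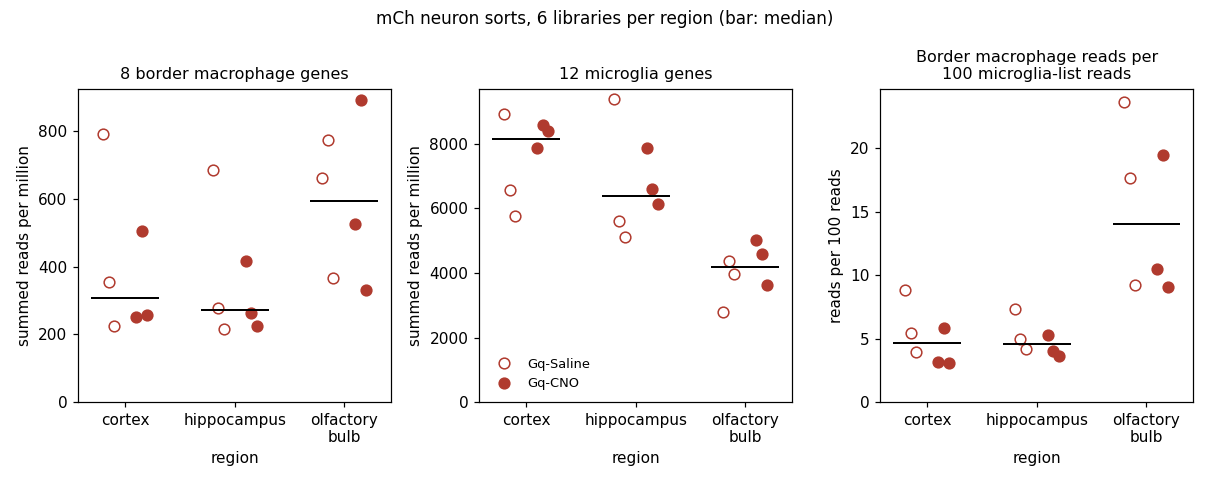
Summed RPM of the 8 members (left panel) and of the 12 microglia genes (middle panel), and member reads per 100 microglia reads (right panel), in each mCh library titled neurons by region; open points are Gq-Saline, filled points Gq-CNO and bars medians of 6. The right panel shows 9.08 to 23.7 in the olfactory bulb, 3.08 to 8.87 in the cortex and 3.66 to 7.30 in the hippocampus.

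Against the cortex, limma called 0 of the 8 members, where 8.58% of genes were called and the median over all genes was 0.39, and 2 members had an unadjusted p under 0.05. These were Mrc1 (log2 difference 0.69, adjusted p = 0.214) and Ms4a7 (2.85, SE 0.99, adjusted p = 0.0635). edgeR called 0 members and DESeq2 called Ms4a7 (adjusted p = 0.0473). Ms4a7 had 0 reads in all 6 cortex libraries and reached the filter through the olfactory bulb and hippocampus libraries, so it had to differ from the cortex once tested. Its totals were 0 reads against 97 reads over the 6 olfactory bulb and 136 over the 6 hippocampus libraries, at least 11.6-fold and at least 13.1-fold higher against a floor of 3 reads over the group. It had reads in every olfactory bulb library, at 0.17 to 11.4 RPM, and 64 of the 136 hippocampus reads came from Gq-CNO replicate 1. The other 6 members differed from the cortex by 0.25 (Lyve1) to 1.66 (Cd163) on the log2 scale, with adjusted p from 0.261 to 0.921 by limma. For Lyve1 the direction turned with DESeq2 (-0.38), edgeR (-0.25) and quantile normalisation (-0.22), and its mean was 35.7 ± 28.6 normalised reads in the olfactory bulb and 55.1 ± 59.4 in the cortex. For F13a1 it turned with DESeq2 (-0.0068). Both olfactory bulb comparisons share the olfactory bulb libraries.

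The cortex and the hippocampus did not separate by these genes. limma called 0 of 8 members, edgeR and DESeq2 also 0, with 1 unadjusted p under 0.05 and a lowest adjusted p of 0.297, both of Ms4a7, which was at 0 in the cortex and tested through the other regions, where 0.388% of all genes were called. 4 members were higher and 4 lower in the cortex, with a median difference of 0.17. For Mrc1 the 95% interval of the log2 difference ran from -0.09 to 1.29.

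Against this, the microglia list was lower in the olfactory bulb, with 7 of 12 genes called against the cortex and 5 of 12 against the hippocampus. P2ry12 fell by 1.25 against the cortex (adjusted p = 3.05e-06 by limma) and by 0.95 against the hippocampus (0.000358). Csf1r fell by 1.00 (adjusted p = 2.02e-05) and by 0.79 (0.000847), as 1 of 4 and 1 of 2 genes lower among the 12 shared by all macrophages. Relative to the microglia genes the members were more abundant in the olfactory bulb: their summed reads per 100 microglia reads had a lowest, median and highest value of 9.08, 14.0 and 23.7 there, 3.08, 4.66 and 8.87 in the cortex and 3.66, 4.58 and 7.30 in the hippocampus. No olfactory bulb library overlapped another region, though the gap to the cortex was narrow (9.08 against 8.87). The denominator is the microglia list that was lower in the olfactory bulb, so the ratio would be higher there even with unchanged members. For Mrc1 alone the values were 3.58, 7.52 and 10.4, against 1.39, 1.98 and 4.14 and 0.881, 1.88 and 2.77, and 1 cortex library overlapped.

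**Figure D4:**
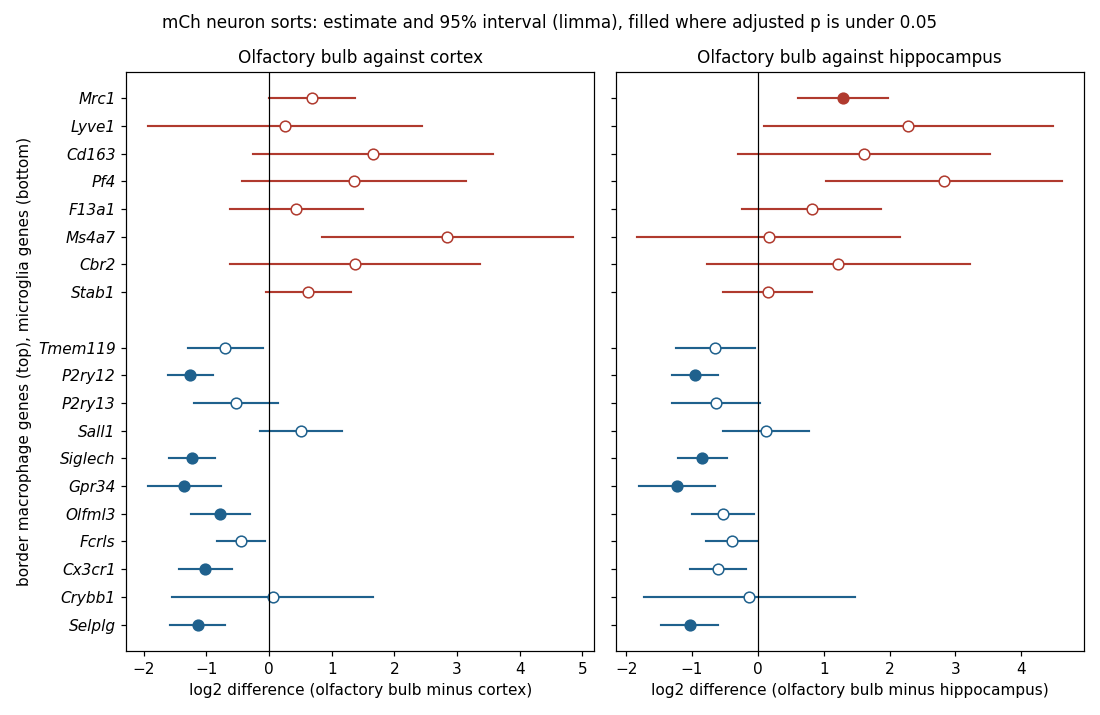
Log2 differences (points, with 95% intervals) of the 8 members and 11 of the 12 homeostatic microglia genes in mCh sorts, olfactory bulb against cortex and against hippocampus; filled points have an adjusted p under 0.05 in limma's test. Of the members Mrc1 against the hippocampus is filled (1.29), and the filled microglia genes lie below 0, with P2ry12 at -1.25 and -0.95.

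Genes of other cell types differed between the regions as well. Genes of MHC class II presentation, which border macrophages and dendritic cells share, were higher in the olfactory bulb for 3 of 6 tested against each region, with Cd74, the invariant chain gene, at 4.58 against the cortex and 3.30 against the hippocampus and H2-Aa at 4.72 and 3.61. Of the further border macrophage markers 20 were tested: against the cortex Cd38, a NAD-consuming ectoenzyme gene, rose by 4.19 (adjusted p = 0.000731 by limma) and 1 other marker was called lower, and against the hippocampus 0 passed (lowest adjusted p 0.168, for Siglec1). Of 12 astrocyte genes 8 were higher in the olfactory bulb than in the cortex and 9 than in the hippocampus. The lymphatic list summed to 200 to 414 RPM in the olfactory bulb, 10.1 to 52.2 RPM in the cortex and 86.7 to 321 RPM in the hippocampus, with Reln, which neurons also express, higher in both comparisons. Il34, a second ligand of Csf1r, was higher than in the cortex (3.19, adjusted p = 0.044 by limma). The part of these other cells in the member differences was not tested.

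In the Slc22a3-FF olfactory bulb, limma called 0 of the 8 members between the libraries labelled Slc22a3-cKO and the floxed controls, where 2.53% of 13465 genes were called. Lyve1 had the widest difference. It was at 0, 78.7 and 17.9 normalised reads in the libraries labelled Slc22a3-cKO and at 352, 189 and 622 in the controls. Cd163 was at 214, 261 and 312 in the libraries labelled Slc22a3-cKO and at 582, 437 and 908 in the controls. For both genes the groups did not overlap, as for 22.7% of all tested genes. The log2 difference was -4.92 for Lyve1 (SE 1.31, adjusted p = 0.0690 by limma) and -1.24 for Cd163 (SE 0.41, adjusted p = 0.129), the 2 members with an unadjusted p under 0.05. Lyve1 reached 10 normalised reads in all 3 controls and in 2 libraries labelled Slc22a3-cKO. It was thus tested by virtue of the controls, in which it is high. edgeR called 0 members. DESeq2 called Cd163 (adjusted p = 0.0395), and limma called Lyve1 with a pseudocount of 5 (0.0347), after quantile normalisation (0.0415) or without Slc22a3-cKO replicate 3 (0.0380). With 1 library left out the Lyve1 difference ran from -6.32 (without Slc22a3-cKO replicate 2) to -3.16 (without Slc22a3-cKO replicate 1, the library at 0).

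The other scavenger receptor genes did not pass. Mrc1 was at 3520, 5453 and 4419 normalised reads in the libraries labelled Slc22a3-cKO and at 6884, 3857 and 8880 in the controls (log2 difference -0.49, 95% interval -1.23 to 0.25, adjusted p = 0.488 by limma). Stab1 was at 904, 1364 and 1254 against 1285, 870 and 1817 (-0.13, interval -0.89 to 0.62, adjusted p = 0.886). Both pairs of groups overlapped. Among the secreted members, Pf4 was at 19.5, 50.8 and 79.2 against 98.3, 65.0 and 193 (-1.30, adjusted p = 0.422), and F13a1 at 640, 619 and 734 against 1096, 409 and 2061 (-0.56, adjusted p = 0.609). F13a1 varied more among the controls than between the groups. Ms4a7 was at 228, 190 and 156 against 174, 77.3 and 93.5 (0.80, adjusted p = 0.488), and Cbr2 was at 0, 84.4 and 35.8 against 27.31, 21.68 and 59.58 (-1.21, adjusted p = 0.728). The Cbr2 difference turned to 0.15 with DESeq2 and 0.13 with edgeR, and its mean was 40.1 under the cKO label and 36.2 in the controls, so it had no stable direction. The median over the 8 members was -0.88 and over all tested genes -0.10.

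**Figure D5:**
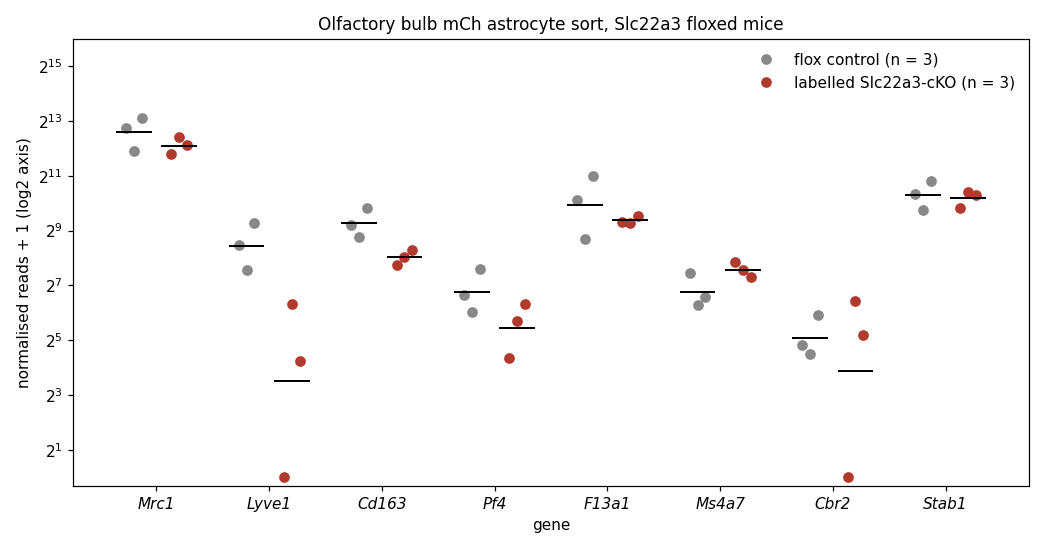
Normalised reads + 1 (log2 axis) of the 8 members in the 3 libraries labelled Slc22a3-cKO and the 3 floxed controls of the olfactory bulb mCh sort, with a bar at the mean of the log2 values. Lyve1 and Cd163 are lower in every library labelled Slc22a3-cKO than in every control, and the other 6 members overlap.

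Other myeloid genes did pass the test between these libraries. Of 9 MHC class II presentation genes 7 were higher under the cKO label, among them Cd74 (5.46, adjusted p = 0.000175 by limma), H2-Aa (5.30, 0.000243) and H2-Eb1 (5.20, 0.000348), and the list summed to 4100, 6012 and 1646 RPM against 119, 103 and 113 RPM. Cd209a, a lectin gene on that list and on the list of further border macrophage markers, was lower (-5.30, adjusted p = 0.0416), the 1 of 26 such markers to pass. The endocytic adaptor gene Dab2 (-0.98, 0.0942), Ccl24 (-2.74, 0.137) and Cd36 (1.83, 0.158) did not. Of the microglia genes Fcrls was lower (-1.94, adjusted p = 0.022 by limma), 1 of 12. Of the genes shared by all macrophages 0 of 12 passed, and all 12 had positive fitted differences (C1qa 1.66, adjusted p = 0.0668). The members' reads per 100 microglia reads were 8.70, 10.3 and 17.8 in the libraries labelled Slc22a3-cKO and 16.61, 15.99 and 15.97 in the controls. The lymphatic list, of interest for Lyve1, summed to 102 to 248 RPM under the cKO label and 262 to 760 RPM in the controls, without overlap. It includes Reln, which neurons also express, so the sum is not one of lymphatic cells alone. The part of this list in the Lyve1 difference was not tested. Some genes of neural cells were also lower under the cKO label: of 9 neuron genes 2 were called and all 9 had negative fitted differences (median -2.42), with the synaptic gene Snap25 at -2.75 (adjusted p = 0.0280 by limma). Of 12 astrocyte genes 2 were called lower and 11 had negative differences (median -0.80), with the water channel gene Aqp4 at -2.40 (0.00171). Of 8 oligodendrocyte genes 0 were called and all 8 had negative differences (median -1.70). The part of these shifts in the member differences was not tested.

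Gq-CNO and Gq-Saline were compared in each region and sort, and no member was called. Over the 6 comparisons 27 member tests were possible, 22 of them in mCh sorts. limma, edgeR and DESeq2 each called 0, and 0 had an unadjusted p under 0.05 in limma. Of all genes, 0.00847% were called in the olfactory bulb GFP sort and 0% in each of the other 5. For Mrc1 in the mCh sorts the log2 difference was 0.14 in the olfactory bulb (95% interval -0.57 to 0.84), -0.60 in the cortex (-1.54 to 0.34) and -0.16 in the hippocampus (-1.12 to 0.81). The corresponding libraries were at 321, 402 and 171 RPM with Gq-CNO and 290, 380 and 142 RPM with Gq-Saline in the olfactory bulb. The ranges of both arms overlapped. In the cortex Mrc1 was at 109, 173 and 127 RPM against 370, 176 and 112 RPM, and in the hippocampus at 167, 108 and 61.6 RPM against 260, 49.6 and 110 RPM. The lowest unadjusted p of the 27 tests, 0.119, was that of Cbr2 in the cortex mCh sort (-2.70). There Cbr2 reached 10 normalised reads in 3 Gq-Saline libraries and 1 Gq-CNO library, so it was tested by virtue of the Gq-Saline group.

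Intervals were wider in the GFP sorts, where the members had few reads. Mrc1 differed by -1.36 in the olfactory bulb (95% interval -3.66 to 0.95), by -0.51 in the cortex (-4.27 to 3.26) and by 2.21 in the hippocampus (-2.09 to 6.505). The hippocampus value was -0.34 without the pair of libraries whose columns are numbered 4, of which the Gq-CNO library held 13.3 RPM and the Gq-Saline library 0 RPM. In the olfactory bulb GFP sort the members' sum did not overlap between the arms, at 2.74, 5.31 and 4.25 RPM with Gq-CNO and 18.5, 24.2 and 15.9 RPM with Gq-Saline, and 9.88% of all genes did not overlap in this comparison. Of the 24.2 RPM in Gq-Saline replicate 2, Lyve1 gave 16.5 RPM (182 reads), while the other 5 libraries had 0 Lyve1 reads. Without Lyve1 the Gq-Saline sums were 18.5, 7.70 and 15.9 RPM.

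The Gq-CNO effect itself was compared between regions in the mCh table. limma called 0 of 24 member tests and 0% of 12358 genes in each of the 3 pairs of regions. The lowest unadjusted p was 0.164 (Stab1, olfactory bulb minus cortex, -0.95) and the lowest adjusted p 0.941. edgeR and DESeq2 also called 0 members.

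Levels of the members were positively correlated with each other across libraries. Over the 18 mCh libraries titled neurons, the 28 pairs of members had Pearson correlations of log2(RPM + 1) from 0.04 to 0.72 with a median of 0.40, all above 0. These points share regions, treatments and depth, and the correlations are given as a description. Pairs of other genes were not measured in the same way, so whether the correlations are particular to the members is not known. The gene most like the mean of the 7 members that reached 10 RPM in at least 3 of these libraries (Ms4a7 did not) was Dab2, an endocytic adaptor gene on the list of further border macrophage markers, with r = 0.83 among 10448 genes. It was followed by Wdr82 (0.75), Usf1 (0.75), Lyn (0.74), Hip1 (0.74), Fam13a (0.74), Gcnt4 (0.74), Mrpl57 (0.73), Scaf4 (0.73) and Klhdc7a (0.73). Lyn encodes a kinase of myeloid receptor signalling, and Usf1, Gcnt4 and Klhdc7a had medians of 2.67, 4.02 and 4.89 RPM in these libraries. Csf1r, which macrophages and microglia share, lay far down the order at -0.19, as did the microglial genes P2ry12 (-0.20) and Tmem119 (-0.50). The transcription factor gene Maf was at 0.60. Over all 48 libraries, which fall into separate clusters by sort so that no r is given, the most alike genes were Fli1, Pou2f2, Myo1f, 9930111J21Rik2, Lyz2, Syk, Lyz1, Abca9, Tlr7 and P2ry13, the last a microglia gene.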

How the data were processed

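Messenger RNA of sorted mouse brain cells was sequenced in 48 libraries (RNeasy Micro extraction, NuGEN Trio RNASeq from 10 ng RNA, paired-end reads, per the labels' protocols). The submitters' processing notes name FastQC 0.11.7, MultiQC 1.11, STAR 2.5.0a, DESeq2 1.30.1 and mm10. How reads were counted, and whether strand was used, is not given in the sources used here. The authors deposited 6 tables of a signal per gene: read counts divided by 1 size factor per library, as judged from the values, since every column is made of whole multiples of its smallest positive value (100% within 0.05). Those multiples are the recovered reads, and RPM is recovered reads per 1000000. Row names had been turned into dates for 27 rows, and each table's own normalisation was kept, so tests were run within a table.

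The test was limma 3.58.1 with a mean-variance trend (R 4.3.3) on log2(value + 1), two-sided, for genes with at least 10 normalised reads in at least 3 libraries, with Benjamini-Hochberg adjustment over all tested genes and a threshold of 0.05. The fit used the 2 groups compared, or all 18 mCh libraries for regions and differences of effects. It was checked on simulated data. Alternatives were pseudocounts of 0.1 and 5, no filter, quantile normalisation, a replicate block, each library left out, and edgeR 4.0.16 and DESeq2 1.42.0 on recovered reads. Exon lengths and positions came from GENCODE M21, promoters from RefSeq.

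The 8 members, the marker lists and the tests were chosen with earlier results of these data known. The members were always described, and of each other list up to 4 genes by smallest unadjusted p, of which 2 genes are not reported here. Like genes were the 10 with the highest Pearson r to the members' mean standardised log2(RPM + 1). A fold against a group at 0 uses a floor of 3 reads and covers counting error only. In no pair of libraries within a group did counts agree within sampling noise.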

Additional observations from a re-analysis of the deposited data

How the results depend on the processing

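Over the alternatives other than leaving 1 library out, 98 values stayed the same and 8 moved, among counts of members called and the ratio of summed levels between sorts. A count had to stay within 1.5 times, and the ratio within 1 SD of the log2 sum over the mCh libraries titled neurons. The counts for Gq-CNO, for the differences of effects and for cortex against hippocampus were 0 under every setting. For members tested singly, 222 values kept their direction and side of the threshold, 5 passed it newly, 4 lost it and 11 reversed. With 1 library left out, 357 values kept both, 18 reversed, 13 lost the call and 5 gained it. Between the libraries labelled Slc22a3-cKO and the floxed controls, 1 member in place of 0 was called under DESeq2, a pseudocount of 5 and quantile normalisation. In olfactory bulb against cortex, 1 in place of 0 was called under DESeq2 and a pseudocount of 0.1, and in olfactory bulb against hippocampus 0 in place of 1 with no filter. With 1 library left out, members called ran from 2 to 3 (CNO control), 0 to 1 (Slc22a3-cKO label), 0 to 1 (olfactory bulb against cortex) and 0 to 2 (olfactory bulb against hippocampus). The ratio of summed member levels between sorts, 26.5, became 0.768 per microglia read and 0.467 per macrophage read. Cause was not tested for any of these changes.

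Some differences that had not passed reversed. Cbr2 under the Slc22a3-cKO label, -1.21 with limma, was 0.15 with DESeq2 and 0.13 with edgeR. Against the cortex, Lyve1 was -0.38 with DESeq2, -0.25 with edgeR and -0.22 after quantile normalisation, and F13a1 was -0.0068 with DESeq2. Against the hippocampus, Ms4a7 was -0.31, -0.41 and -0.35 in the same order as for Lyve1. With 1 library left out, the Mrc1 difference by Gq-CNO ran from -1.41 to 0.62 in the cortex GFP sort, from -0.76 to 0.41 in the hippocampus mCh sort and from -0.26 to 0.47 in the olfactory bulb mCh sort. The ranges were -2.48 to 0.73 for Cbr2 and -0.40 to 0.13 for Stab1 under the Slc22a3-cKO label, -0.62 to 0.80 for Lyve1 against the cortex, and -0.43 to 0.88 for Ms4a7 and -0.071 to 0.35 for Stab1 against the hippocampus.

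Quantile normalisation moved the all-gene median of olfactory bulb against cortex from 0.39 to 0.01 and its calls from 690 higher and 370 lower to 438 and 369. edgeR gave 424 and 367 there, and DESeq2 704 and 581. Under the Slc22a3-cKO label 341 genes were called, against 277 with edgeR, 1154 with DESeq2, 195 with a pseudocount of 0.1 and 483 with 5. Same-numbered libraries did not deviate together between the groups of a treatment or label comparison (correlations from -0.09 to 0.12), so the numbers were not taken as pairs. Same numbers were not compared between regions, so whether regions share animals was not checked. The main region tests treat those libraries as independent. With the replicate block the Slc22a3-cKO label gave 105 genes, the Stab1 difference in the CNO control lost its call (adjusted p = 0.0662 by limma) and Mrc1 in the hippocampus GFP sort was -0.34, the same value as with the number 4 columns left out, which was tried after the data had been seen.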

Other observations

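Single libraries held member or microglia reads out of step with the rest of their group. The cortex GFP Gq-Saline library whose column is numbered 4 had 2342 RPM of microglia genes, where the other 23 GFP libraries had 86.2 to 598 RPM, and 18.02 RPM of the 8 members. That is 0.769 member reads per 100 microglia reads, a ratio not set against its own group here. In replicate 2 of that group Mrc1 had 5 reads (0.573 RPM) and each other member had 0. In hippocampus GFP Gq-CNO, Pf4 had 95, 9 and 0 reads, and 0 in all 3 Gq-Saline libraries, at least 35-fold higher with a floor of 3 reads over the group, most of it from 1 library. F13a1 had 219 of its 222 hippocampus GFP Gq-CNO reads in replicate 1. Lyve1 had 182 reads in olfactory bulb GFP Gq-Saline replicate 2 and 0 in the other 5 Gq libraries of that sort, at least 77.0-fold over the Gq-CNO group by the same floor.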
